A study of Mus musculus with 4 samples.

Results

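The genes described here encode the machinery that imports proteins into mitochondria. They were the rows of the deposited TPM table with a symbol starting in Timm or Tomm and a digit, together with Pam16, Dnajc15, Dnajc19, Grpel1, Grpel2, Chchd4, Gfer, Pmpca, Pmpcb and Samm50, with symbols ending in -ps left out (0 were present). This gave 35 of 22186 listed genes, and 33 of them had a mean of at least 1 TPM and were tested. RNA had been sequenced from cells labelled MC38, the name of a line from a mouse colon carcinoma, which carried a stably transfected, tetracycline-inducible (TetOn) CXCL14 construct, the genotype shared by both groups. The DOX group was 2 libraries of this line given 1 µg/mL doxycycline for 72 h, and the Con group was 2 libraries given an equal volume of the solvent PBS for 72 h, although their treatment label reads Untreat and the series text speaks of collection before and after induction. The labels do not say whether the line is 1 clone. Cells lacking the construct were not given doxycycline, so effects of doxycycline and of induced CXCL14 cannot be told apart. In bulk RNA, fewer cells that express a gene and less of its mRNA per cell cannot be told apart either.

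Cxcl14, the target of the construct, stood at 385 and 391 TPM in DOX libraries, against 27.3 and 29.2 TPM in Con libraries. TPM gives each gene's share of the transcripts after division by length, and without read counts the sequencing depth is unknown. Listed genes summed to between 97.2% and 97.6% of the fixed TPM total, and 14330 to 14678 genes were above 0. The label colon cancer cell was set against 8 markers of colon epithelium, among them Epcam, Cdh1 and Krt20. All 8 stood below 1 TPM in every library, with Cdh1, Krt19 and Cdx2 at 0 throughout, and the identity of the line was not tested. Of 8 macrophage markers 7 were below 1 TPM in every library (summed level 2.71 to 3.95 TPM in DOX, 3.18 to 3.92 TPM in Con), as were 4 of 4 endothelial (0.119 to 0.173 TPM in DOX, 0.505 to 0.627 TPM in Con) and 4 of 4 T cell markers (0.182 to 0.241 TPM in DOX, 0.0883 to 0.279 TPM in Con). The 6 fibroblast markers summed to 493 to 523 TPM in DOX and 3430 to 3620 TPM in Con libraries, nearly all from Dcn and Pdgfra, while Thy1 was at 0 and 3 of 6 were below 1 TPM. The part of this shift in the results below was not tested.

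Most mitochondrial proteins are encoded in the nucleus, made in the cytosol and threaded through a translocase of the outer membrane (TOM). From there, precursors with a cleavable presequence pass the TIM23 translocase, pulled by the PAM motor, and the processing peptidase MPP removes the presequence. Carrier proteins travel with the small TIM chaperones to the TIM22 translocase, cysteine-rich proteins of the intermembrane space are trapped by oxidation in the MIA pathway, and outer-membrane barrels are inserted by the SAM complex.

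Import genes were higher after doxycycline in nearly all complexes. Their levels summed to 4090 and 4140 TPM in DOX libraries, against 3030 and 2940 TPM in Con libraries. Of the 33 tested, 26 rose, 0 fell and 7 did not pass (limma on log2(TPM + 1), adjusted p under 0.05 over all genes tested). Across all 11359 genes tested, 29.0% were called higher and 35.4% lower, 64.4% in either direction. The median log2 change of the 33 genes was 0.43, with a range of -0.05 to 1.21, and that of all genes tested was -0.04. The changes were moderate in size. A log2 change of at least 0.5 was reached by 13 of the 33 genes and by 13.6% of all genes tested, and a change of at least 1 by 2 of the 33 and by 3.49% of all. Both DOX libraries lay above both Con libraries for 30 of 33 genes, against 37.7% of all genes tested. They lay below for 1 of 33, Timm29, against 45.0% of all.

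**Figure D1:**
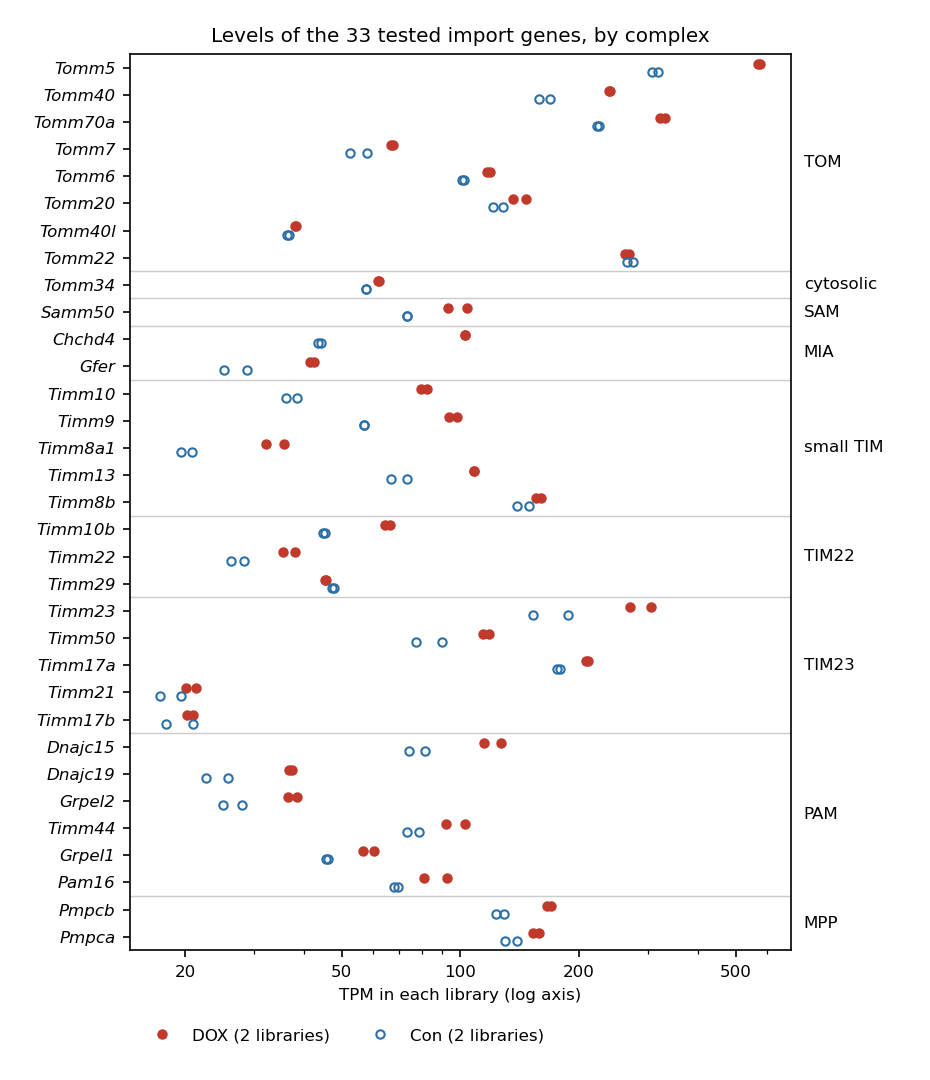
TPM of the 33 tested import genes in each of the 4 libraries (log axis), grouped by complex; filled points are the 2 DOX libraries and open points the 2 Con libraries. The DOX points lie to the right of the Con points for 30 of 33 genes, and Tomm22, Timm17b and Timm29 are the exceptions.

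The upstream sequences of 4 genes are shown: Chchd4, Timm10 and Tomm5 had the largest rises, and Tomm22 was an abundant member that did not pass. Genes with changes between these are not shown. Each is the 250 bases before the annotated transcription start, read 5′ to 3′ on the gene's strand, from RefSeq on build GRCm38.p6, which is older than the build named for the files (mm39). Capitals mark matches, on either strand, to the letters searched.
Chchd4: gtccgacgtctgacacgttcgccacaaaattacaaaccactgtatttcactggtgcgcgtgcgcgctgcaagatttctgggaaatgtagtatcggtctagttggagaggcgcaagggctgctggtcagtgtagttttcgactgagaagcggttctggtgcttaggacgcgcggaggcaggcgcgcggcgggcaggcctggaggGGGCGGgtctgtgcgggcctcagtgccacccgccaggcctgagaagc
Timm10: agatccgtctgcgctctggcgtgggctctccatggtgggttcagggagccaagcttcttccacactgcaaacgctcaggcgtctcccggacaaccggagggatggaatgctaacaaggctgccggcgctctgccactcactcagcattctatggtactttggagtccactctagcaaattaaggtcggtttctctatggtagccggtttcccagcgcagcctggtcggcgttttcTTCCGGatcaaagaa
Tomm5: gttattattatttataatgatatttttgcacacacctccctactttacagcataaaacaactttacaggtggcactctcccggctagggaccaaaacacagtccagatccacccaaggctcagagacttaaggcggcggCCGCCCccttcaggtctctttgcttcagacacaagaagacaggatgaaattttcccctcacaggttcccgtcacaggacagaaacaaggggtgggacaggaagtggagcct
Tomm22: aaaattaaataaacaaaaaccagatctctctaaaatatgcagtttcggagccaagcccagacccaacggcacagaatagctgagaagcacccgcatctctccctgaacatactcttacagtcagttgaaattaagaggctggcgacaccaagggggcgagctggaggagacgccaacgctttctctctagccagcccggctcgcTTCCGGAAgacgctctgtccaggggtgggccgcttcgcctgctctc
These windows are chr6:91473424-91473673 (minus strand) for Chchd4, chr2:84826771-84827020 (plus strand) for Timm10, chr4:45108114-45108363 (minus strand) for Tomm5 and chr15:79670618-79670867 (plus strand) for Tomm22. The motifs searched were the E-box CACGTG, bound by MYC among others, the ETS core CCGGAA, the GC box GGGCGG, a core of the NRF1 site (GCATGCGC), a YY1 core (AAGATGGC) and an ATF4 half-site (TGATGNAA). In Chchd4 the capitals are a GC box 47 to 42 bases before the start, and in Tomm5 a GC box on the other strand, 111 to 106 bases before it. Timm10 held an ETS core on the opposite strand, 15 to 10 bases before the start. In Tomm22 an ETS core on each strand overlapped, spanning bases 46 to 39.

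A promoter outside chromosome 18 was listed for 31 of the 35 genes, and 29 of these had been tested. A gene was counted for a motif if any of its listed windows held the letters, while the sequences above are the first listed window. The GC box was found in 17 of these 29 genes (58.6%), against 65.3% of 9145 tested genes. Of all 27025 genes with a promoter listed outside chromosome 18, 35.4% held it. The ETS core was found in 10 (34.5%), against 26.8% of tested genes and 13.6% of all. The E-box was found in 3 (10.3%), in Tomm20, Timm8a1 and Timm9, against 10.0% of tested genes and 6.86% of all. The NRF1 core was found in 2 (6.9%), in Grpel1 and Timm13, against 5.34% of tested genes and 2.56% of all. The YY1 and ATF4 letters were found in 0 of the 29 genes, against 2.46% and 2.29% of tested genes and 1.83% and 3.91% of all. A match describes letters in a window and is not evidence of binding.

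Within the outer-membrane TOM complex, 6 of 8 tested genes rose and 0 fell, with a median log2 change of 0.25. Beside this and the counts of the other complexes, 29.0% of all genes tested were called higher and 64.4% in either direction. No complex was tested as a set. Summed over the complex, the level was 1760 and 1770 TPM in DOX libraries, against 1310 and 1270 TPM in Con libraries. Tomm5, a small subunit beside the pore, was the most abundant of all 35 genes and stood at 578 and 570 TPM in DOX libraries, against 318 and 307 TPM in Con libraries. The groups lay far apart, and Tomm5 rose 1.84-fold (log2 change 0.87, SE 0.06, adjusted p = 2.0e-06). The other small subunits had smaller changes. Tomm7 stood at 67.6 and 66.8 TPM in DOX libraries, against 52.6 and 58.0 TPM in Con libraries (log2 change 0.28, adjusted p = 0.0068). Tomm6 stood at 117 and 119 TPM in DOX libraries, against 102 and 101 TPM in Con libraries (0.22, adjusted p = 0.0085), a call lost without DOX replicate 2 (adjusted p = 0.068).

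Of the receptors of the TOM complex, Tomm70a and Tomm20 rose and Tomm22 did not pass. Tomm70a, the receptor for carrier precursors, rose to 321 and 330 TPM in DOX libraries, against 225 and 222 TPM in Con libraries (log2 change 0.54, SE 0.06, adjusted p = 3.7e-05). Tomm20, which recognises presequences, stood at 136 and 147 TPM in DOX libraries, against 128 and 121 TPM in Con libraries. Its groups did not overlap, but the change was small (0.18, SE 0.07, adjusted p = 0.035), and the call was lost in 5 of 14 alternative settings (adjusted p 0.012 to 0.26), among them without Con replicate 2 (0.15) and without DOX replicate 2 (0.26). Tomm22, the central receptor, stood at 268 and 262 TPM in DOX libraries, against 275 and 265 TPM in Con libraries. Those groups overlapped (log2 change -0.03, SE 0.06, adjusted p = 0.72), and the sign turned positive under median-of-ratios scaling (0.02) and without Con replicate 1 (0.001). Tomm40, the pore, rose to 239 and 240 TPM in DOX libraries, against 169 and 158 TPM in Con libraries (log2 change 0.55, SE 0.06, adjusted p = 4.4e-05). Its homologue Tomm40l stood at 38.1 and 38.2 TPM in DOX libraries, against 36.7 and 36.3 TPM in Con libraries, and did not pass (0.06, adjusted p = 0.44). Tomm20l was listed at 0 in all 4 libraries.

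Tomm34 encodes a cytosolic protein that binds heat shock chaperones and is not a subunit of the TOM complex. It stood at 62.1 and 61.7 TPM in DOX libraries, against 57.6 and 57.5 TPM in Con libraries. The libraries of a group were close and the groups did not overlap, yet the difference did not pass (log2 change 0.10, SE 0.06, adjusted p = 0.17). Samm50, the barrel-inserting core of the SAM complex, rose to 93.2 and 104 TPM in DOX libraries, against 73.3 and 73.1 TPM in Con libraries (log2 change 0.43, SE 0.07, adjusted p = 0.00059).

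The MIA pathway held the largest change of the machinery. Chchd4, the oxidoreductase that forms disulfides in incoming proteins, stood at 103 and 103 TPM in DOX libraries, against 44.3 and 43.6 TPM in Con libraries. It rose 2.35-fold (log2 change 1.21, SE 0.06, adjusted p = 3.6e-07) and ranked 230 of 11359 genes tested by change. Gfer, the sulfhydryl oxidase that re-oxidises CHCHD4, stood at 42.4 and 41.6 TPM in DOX libraries, against 25.1 and 28.8 TPM in Con libraries. The change was 1.56-fold (log2 change 0.62, SE 0.08, adjusted p = 0.00015).

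The small TIM genes, whose products chaperone hydrophobic precursors across the intermembrane space and are themselves folded by CHCHD4, had a median log2 change of 0.72, and 4 of 5 tested rose. Timm10 stood at 79.5 and 82.1 TPM in DOX libraries, against 36.0 and 38.5 TPM in Con libraries, and rose 2.17-fold (log2 change 1.10, SE 0.07, adjusted p = 1.1e-06). Its partner Timm9 stood at 93.5 and 98 TPM in DOX libraries, against 56.8 and 57.0 TPM in Con libraries (log2 change 0.74, SE 0.06, adjusted p = 7.7e-06). Both partners were well separated between the groups. In the other chaperone pair, Timm13 stood at 108 and 108 TPM in DOX libraries, against 73.2 and 66.8 TPM in Con libraries (log2 change 0.62, SE 0.07, adjusted p = 3.7e-05). Timm8a1, the mouse counterpart of the human deafness-dystonia gene TIMM8A, stood at 35.7 and 32.1 TPM in DOX libraries, against 20.8 and 19.5 TPM in Con libraries (log2 change 0.72, SE 0.08, adjusted p = 6.7e-05). Timm8b, the more abundant of the Timm8 forms, did not pass. It stood at 156 and 160 TPM in DOX libraries, against 139 and 149 TPM in Con libraries (log2 change 0.13, SE 0.06, adjusted p = 0.088), and passed under median-of-ratios scaling (adjusted p = 0.03) and without Con replicate 2 (0.043). Timm8a2 was listed at 0 in 3 libraries and at 0.28 TPM in Con replicate 1.

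Of the TIM22 translocase for carrier proteins, 2 of 3 genes rose, against 29.0% of all genes tested. Timm22, its channel, stood at 35.5 and 38.1 TPM in DOX libraries, against 26.1 and 28.2 TPM in Con libraries (log2 change 0.43, SE 0.08, adjusted p = 0.0012). Timm10b, a small TIM protein bound to the complex, rose to 66.4 and 64.4 TPM in DOX libraries, against 44.9 and 45.2 TPM in Con libraries (0.53, adjusted p = 8.1e-05). Timm29, known from human cells as a subunit of the complex, went the other way without passing. It stood at 45.7 and 45.4 TPM in DOX libraries, against 47.7 and 47.1 TPM in Con libraries (log2 change -0.05, SE 0.07, adjusted p = 0.48).

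**Figure D2:**
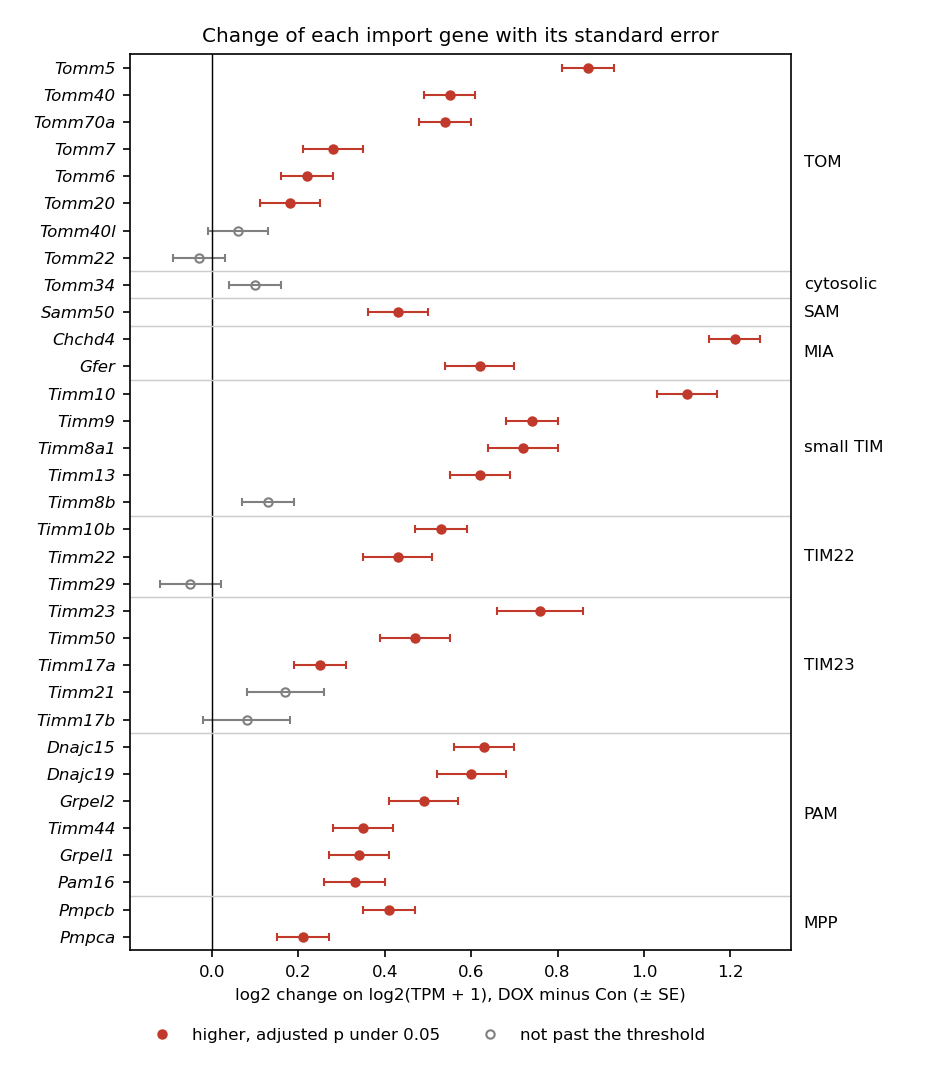
Log2 change of each of the 33 tested genes (DOX minus Con on log2(TPM + 1), bars are ± SE from limma), grouped by complex and ordered by size within it; filled red points are the 26 genes higher at an adjusted p under 0.05, open grey points the 7 that did not pass. Chchd4 (1.21) and Timm10 (1.10) lie farthest right, and Timm29 (-0.05) farthest left.

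In the presequence translocase TIM23, 3 of 5 genes rose and 0 fell, against 29.0% and 35.4% of all genes tested. All 5 log2 changes were positive, with a median of 0.25. Timm23, the channel-forming subunit, stood at 270 and 305 TPM in DOX libraries, against 188 and 153 TPM in Con libraries. It had a wide spread within both groups, which still did not overlap (log2 change 0.76, SE 0.10, adjusted p = 0.00013). Timm50, the receptor that takes presequences over from TOM, stood at 114 and 118 TPM in DOX libraries, against 89.6 and 77.1 TPM in Con libraries (0.47, SE 0.08, adjusted p = 0.00057). Timm17a, a core subunit, rose slightly, to 211 and 209 TPM in DOX libraries, against 176 and 179 TPM in Con libraries (0.25, SE 0.06, adjusted p = 0.0042). Its paralog Timm17b stood at 20.2 and 21 TPM in DOX libraries, against 21 and 17.9 TPM in Con libraries, with overlapping groups (0.08, adjusted p = 0.47; -0.03 without Con replicate 2). Timm21, which links TIM23 to the respiratory chain, stood at 21.3 and 20.1 TPM in DOX libraries, against 17.3 and 19.5 TPM in Con libraries. Timm21 did not pass (0.17, adjusted p = 0.14) except under quantile normalization (0.31, adjusted p = 0.016), and without Con replicate 1 its change was 0.084 (adjusted p = 0.47).

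All 6 genes of the PAM motor rose, by log2 changes of 0.33 to 0.63, a range narrower than that of TOM (-0.03 to 0.87) or of TIM23 (0.08 to 0.76). The J-protein Dnajc15 stood at 115 and 127 TPM in DOX libraries, against 81.5 and 74.2 TPM in Con libraries (log2 change 0.63, SE 0.07, adjusted p = 6.7e-05). Dnajc19, the related J-protein, stood at 37.4 and 36.7 TPM in DOX libraries, against 25.7 and 22.6 TPM in Con libraries (0.60, SE 0.08, adjusted p = 0.00019). Both J-proteins stimulate the ATPase of the motor's Hsp70. The nucleotide exchange factors of that Hsp70 followed, Grpel2 at 38.4 and 36.6 TPM in DOX libraries, against 24.9 and 27.9 TPM in Con libraries (0.49, adjusted p = 0.00061). Grpel1 stood at 56.7 and 60.2 TPM in DOX libraries, against 45.7 and 46.0 TPM in Con libraries (0.34, adjusted p = 0.0016). Timm44, the scaffold that tethers Hsp70 to the channel, stood at 103 and 91.8 TPM in DOX libraries, against 78.7 and 73.3 TPM in Con libraries (0.35, adjusted p = 0.0026). Pam16, whose yeast counterpart restrains the J-protein, stood at 92.5 and 81.0 TPM in DOX libraries, against 69.3 and 67.7 TPM in Con libraries (0.33, adjusted p = 0.0037). For Timm44 and Pam16, DOX replicate 1 was the higher of the DOX libraries, whereas Dnajc15 and Grpel1 were higher in DOX replicate 2.

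Both subunits of the presequence peptidase MPP rose. Pmpcb, the catalytic subunit, stood at 170 and 166 TPM in DOX libraries, against 123 and 129 TPM in Con libraries (log2 change 0.41, SE 0.06, adjusted p = 0.00023). Pmpca, the substrate-binding subunit, stood at 153 and 158 TPM in DOX libraries, against 139 and 130 TPM in Con libraries. Its change was smaller (0.21, SE 0.06, adjusted p = 0.016), and the call was lost in 4 of 14 alternative settings (adjusted p 0.0053 to 0.11), among them without Con replicate 2 (0.069) and without DOX replicate 2 (0.11).

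Paralogs that can serve the same step were compared by their share of the summed TPM, which is per length. Timm8a1, Dnajc19 and Grpel2 have a near-identical pseudogene. Exons of Timm8b, Tomm40, Tomm40l, Timm17b, Grpel1 and Dnajc19 overlap a gene on the opposite strand. Every pair holds such a gene, so the shares are uncertain. Tomm40 made up 86.3% and 86.3% of Tomm40 plus Tomm40l in DOX libraries, against 82.1% and 81.4% in Con libraries. Timm8a1 made up 18.6% and 16.7% of Timm8a1 plus Timm8b in DOX libraries, against 13.0% and 11.5% in Con libraries. In both pairs the groups did not overlap, and the log2 ratio differed by 0.49 and 0.62 between them (exact permutation p = 0.33 for each, two-sided, the smallest that 2 against 2 libraries can give). The other pairs were closer. Timm17a made up 91.3% and 90.9% of its pair with Timm17b in DOX libraries, against 89.3% and 90.9% in Con libraries (exact permutation p = 0.67). Dnajc15 made up 75.5% and 77.5% of its pair with Dnajc19 in DOX libraries, against 76.0% and 76.7% in Con libraries (p = 1.0 by the same exact test). Grpel1 made up 59.6% and 62.2% of its pair with Grpel2 in DOX libraries, against 64.7% and 62.2% in Con libraries (exact p = 0.33), with the nearest libraries of the groups alike to the printed decimal.

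**Figure D3:**
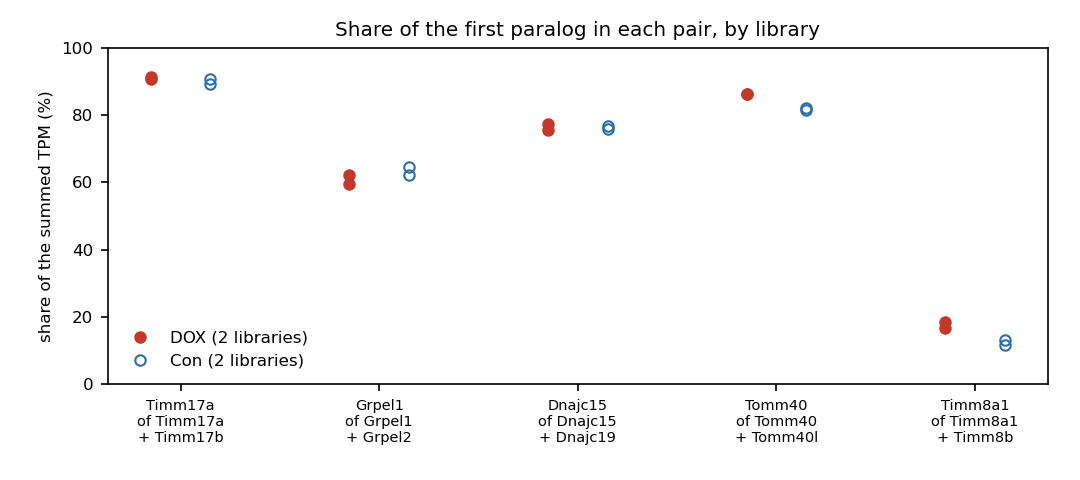
Share (%) of the named paralog in the summed TPM of its pair, in each of the 2 DOX libraries (filled) and 2 Con libraries (open). Tomm40 (86.3% in DOX, 81.4% to 82.1% in Con) and Timm8a1 (16.7% to 18.6% in DOX, 11.5% to 13.0% in Con) are the pairs whose groups stand clearly apart.

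Genes that work beside these complexes were read from lists taken from textbook membership, chosen with earlier results of these data known. Of 16 genes listed as other import factors, 12 rose and 0 fell, with a median log2 change of 0.51. The list includes the matrix chaperones Hspe1, Hspd1 and Dnaja3. Of all genes tested, 29.0% were called higher and 35.4% lower. The matrix co-chaperonin Hspe1 stood at 818 and 884 TPM in DOX libraries, against 267 and 297 TPM in Con libraries (log2 change 1.59). Its partner, the chaperonin Hspd1, stood at 1170 and 1250 TPM in DOX libraries, against 486 and 495 TPM in Con libraries (1.30). Dnaja3, a matrix J-protein, stood at 172 and 170 TPM in DOX libraries, against 70.4 and 67.4 TPM in Con libraries (1.30). These chaperones changed by more than any of the 33 genes. Immp2l, a subunit of the inner membrane peptidase, rose with a wide spread, at 11.8 and 14.8 TPM in DOX libraries, against 8.73 and 3.94 TPM in Con libraries (1.04, SE 0.26, adjusted p = 0.0066). Hspa9, the Hsp70 of the PAM motor, chosen after its values were seen, stood at 1150 and 1100 TPM in DOX libraries, against 730 and 709 TPM in Con libraries (log2 change 0.64, adjusted p = 2.7e-05).

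The genes of a list of MIA substrates are called twin CX9C genes here, and the motif was not checked in each gene. They were mixed, with a median log2 change of 0.37. Of the 22 genes, 12 rose and 3 fell, against 29.0% and 35.4% of all genes tested. Uqcrh, a subunit of respiratory complex III, fell to 283 and 283 TPM in DOX libraries, against 569 and 566 TPM in Con libraries (log2 change -1.0, adjusted p = 7.5e-07). The other 2 genes that fell, chosen for their values, were Cox19 (-0.39) and Ndufb10 (-0.27). Chchd1 of the mitochondrial ribosome, Coa4 and the copper chaperone Cox17 rose (log2 change 0.64, 0.62 and 0.59). The MICOS complex shapes the cristae and contacts the SAM complex. Of its 7 listed genes, 4 rose and 1 fell, against the same 29.0% and 35.4% of all genes tested. Micos13 stood at 130 and 143 TPM in DOX libraries, against 79.9 and 83.6 TPM in Con libraries (log2 change 0.73). Micos10, chosen for its value, fell (-0.23), while Immt, Chchd3 and Chchd6 rose (0.31, 0.31 and 0.45), the last pair also counted among the twin CX9C genes.

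**Figure D4:**
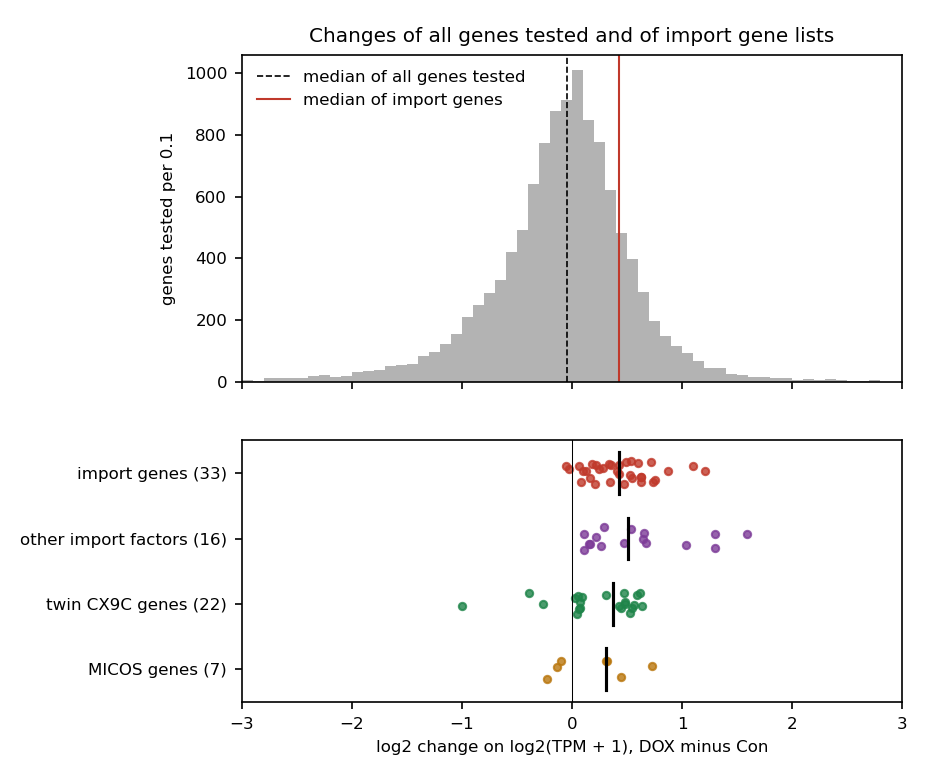
Upper panel, number of tested genes per 0.1 of log2 change (DOX minus Con), with the median of all genes tested (dashed, -0.04) and of the import genes (red, 0.43); 56 genes lie outside the plotted range. Lower panel, each point a gene of the named list and each black bar its median; the import genes run from -0.05 to 1.21, and Uqcrh (-1.0) is the lowest twin CX9C gene.

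Many import genes are short, and some have near-identical copies. Genes tested whose protein-coding transcripts had a median length under 1000 bases were called higher in 33.7% of cases, against 25.4% of those of 4000 bases or more. The share was 31.3% from 1000 to below 2000 bases and 27.0% from 2000 to below 4000 bases. Of the import genes under 1000 bases 10 of 11 rose (median log2 change 0.53). Of those from 1000 to below 2000 bases 8 of 10 rose (0.44). From 2000 to below 4000 bases 5 of 9 rose (0.18), and from 4000 bases up 3 of 3 (0.54). A near-identical pseudogene was found for 7 of the 33 genes (Tomm5, Tomm20, Tomm22, Timm23, Timm8a1, Dnajc19 and Grpel2), so their single values are uncertain. Of these 7 genes 6 rose (median log2 change 0.60), and of the other 26 genes 20 rose (0.38). Exons of 14 of the 33 genes overlap a gene on the opposite strand, such as Timm9 with Tomm20l, Pmpca with Inpp5e and Tomm40l with Nr1i3, and the labels do not say whether counting used strand. Of these 14 genes 10 rose (0.34). Exons of Samm50, Timm23, Tomm6 and Timm10b overlap a gene on the same strand, so their single values are uncertain too. Among the 12 genes with neither a pseudogene nor an exon overlap on either strand, 10 rose (0.42). Copies and overlaps were sought for the import genes only, so these counts have no matching share over all genes. Whatever their copies or overlaps, 29.0% of all genes tested were called higher.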

How the data were processed

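RNA of 4 libraries of MC38 cells (genotype label TetOn-CXCL14) was measured, with groups taken from the sample titles. Per the labels' protocols, RNA was purified on columns and libraries were made with an mRNA kit. The authors deposited TPM and FPKM tables, per the file headers and names. The submitters' processing notes name build mm39. Which aligner, quantifier and annotation were used is not given in the sources used here. The summed TPM of a library was 3.08 to 3.14 times its summed FPKM.

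Of 22186 genes, the 11359 averaging 1 TPM or more were tested on log2(TPM + 1), which understates changes of low genes, with limma 3.58.1 in R 4.3.3 (eBayes with trend, prior degrees of freedom 6.98 beside 2 residual), DOX minus Con, no covariate, Benjamini-Hochberg over all genes tested. The samples are called biological replicates in the series text. Motifs, lengths and lists were handled in Python 3.11.15 with pandas 2.3.3. Copies were sought with blastn 2.17.0 among 13607 pseudogene transcripts of GENCODE M21 (identity of at least 97% over at least 100 bases), an annotation of an earlier build, used for names, sequences, lengths and overlaps only. Every member is named, and of each other list up to 4 passing genes with the largest change, beside Hspa9, Cox19, Ndufb10 and Micos10, which were chosen after their values were seen. Members and lists were chosen with earlier results of these data known. Alternatives were other pseudocounts, filters, scalings, variance models, FPKM, a replicate block and each library left out.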

Additional observations from a re-analysis of the deposited data

How the results depend on the processing

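Between 23 and 27 of the import genes were higher and 0 lower under 14 alternative settings, and their median log2 change ran from 0.394 to 0.471. Leaving out each replicate in turn gave 23 to 26 higher, the lowest without DOX replicate 2, with the lone library of a group assumed to vary like the other group. Of the 26 genes called higher, 23 passed in every setting, and the exceptions were Tomm20, Pmpca and Tomm6. Over all genes, 2776 to 3870 were higher and 3356 to 4114 lower. With the replicate block the counts were 26 import genes higher and 3387 and 4114 of all genes higher and lower. The deviations of libraries with equal numbers correlated at -0.00526 over 11359 genes, and nothing in the labels pairs them. The sign turned for Tomm22 under median-of-ratios scaling (0.0212), and leaving out replicates moved its log2 change between -0.0529 and 0.00111, the highest without Con replicate 1. That of Timm17b ran from -0.0299 without Con replicate 2 to 0.196 without Con replicate 1. Neither gene passed the threshold; the cause was not tested. With no read counts, the precision at low TPM is unknown.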
